A study of Mus musculus with 7 samples.

Results

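The genes described are the tissue factor pathway and the thrombin receptors of mouse fibroblasts: tissue factor (F3), thrombomodulin (Thbd), the inhibitors Tfpi and Tfpi2, the endothelial protein C receptor (Procr), and the protease-activated receptors F2r, F2rl1 and F2rl2. They were chosen by name, as the probe sets that the array's annotation pairs with exactly 1 of these symbols. Of the 8 genes, 7 had such a probe set, 1 each, out of 19937 genes in all, and F2rl1 was not analysed here. All 7 passed the filter on dim probe sets and were among the 16801 genes tested.

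Each of the 7 arrays holds RNA of 1 clone of mouse embryonic fibroblasts, connective tissue cells grown out of embryos, which had immortalised spontaneously in culture. The knockout and knockdown groups lack or are depleted of tenascin-C (Tnc), a large glycoprotein of the extracellular matrix. The knockout group has 2 clones of tenascin-C knock-out mouse cells. The knockdown group has 2 clones of wild-type cells carrying a stable short hairpin RNA against tenascin-C, and the wild-type group has 3 clones. All were grown for 2 days in serum-containing medium without further treatment, and the strain, sex and age of the mice are not in the labels. No group with a control hairpin is analysed here, so depletion of the target and the transfection itself cannot be told apart. Nothing in the labels ties the clones to separate animals, and the p-values therefore measure the spread between these clones. Knockout and knockdown were compared with the same 3 wild-type arrays, so these comparisons are not independent of each other.

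Tissue factor is the membrane protein that starts blood clotting: it binds factor VIIa, and the complex activates factor X, which leads to thrombin. Tfpi blocks that complex, thrombomodulin and the protein C receptor turn thrombin towards activating the anticoagulant protein C, and the protease-activated receptors pass the cleavage by thrombin or other proteases on to G proteins. Fibroblasts around vessels are a known source of tissue factor, whereas thrombomodulin and the protein C receptor are best known from endothelium.

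The targeted gene was measured first. The probe set of Tnc had log2 signals of 8.05 and 8.51 in knockout clones and 7.34 and 6.52 in knockdown clones, against 10.89, 11.42 and 11.38 in wild-type clones. Relative to wild type it fell by 2.95 log2 units in knockout clones (limma, adjusted p = 0.042). In knockdown clones it fell by 4.30 (limma, adjusted p = 0.0339), and leaving out any single array ended either call. Where the probe set lies relative to the deletion is not known here. Array medians lay between 5.38 and 5.49, and pairs of arrays correlated at 0.979 to 0.990. Sex-linked genes set 2 clones apart from the others of their group. Knockout array 2 had the only high signal of Xist, the RNA of X inactivation, at 8.80, where no other array exceeded 3.77. Eif2s3y, a Y-linked gene, was low on that array (3.77) and on knockdown array 2 (5.46), and stood at 7.51 or above elsewhere. The knockout clones thus differed in sex-linked pattern, male-like on array 1 and female-like on array 2, so a single animal of origin cannot be assumed for them. Each member's differences without both of these arrays are given with its results. Of 12 fibroblast markers, 11 or 12 lay above the array median on every array, and of 12 endothelial markers 1 or 2 did. Of 10 macrophage and blood markers 1 or 2 did, of 10 epithelial markers 3 or 4, and of 10 pericyte and smooth muscle markers 6. Such counts do not show that the levels of markers were alike between clones. The fibroblast marker Lum read 5.76 and 4.17 in knockout and 6.95 and 5.85 in knockdown clones, against 5.06, 9.26 and 9.13 in wild-type clones. Of the 12 fibroblast markers, 6 were higher and 6 lower than wild type in knockout, and 7 were higher and 5 lower in knockdown. The epithelial marker Krt19 read 8.45 and 4.87 in knockout and 6.06 and 5.67 in knockdown clones, against 8.22, 8.25 and 8.51 in wild-type clones. The mean log2 signal of the endothelial list was 4.78 to 4.88 in knockout, 4.90 to 4.95 in knockdown and 4.84 to 4.94 in wild-type clones. In RNA from whole cultures, fewer cells expressing a gene and less RNA of it per cell cannot be told apart.

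No member passed an adjusted p of 0.05 (limma, Benjamini-Hochberg over all genes tested) in any of the 4 comparisons. In knockout against wild type, 0 of 7 members passed, beside 0.167% of all genes, and 3 of 7 (F3, F2r and F2rl2) had an unadjusted p under 0.05, beside 12.8% of all genes. The arrays of the 2 groups did not overlap for the same 3 members, beside 28.5% of all genes. In knockdown against wild type, 0 of 7 passed (0.0179% of all genes), 1 of 7 (F2r) had an unadjusted p under 0.05 (14.1%), and 2 of 7 (F2r and F2rl2) did not overlap (30.5%). With both deficient groups averaged against wild type, 0 of 7 passed (0.0298%), and F2r alone had an unadjusted p under 0.05 (12.3%) and did not overlap (7.7%). In knockout against knockdown, 0 of 7 passed (0.375%), while F3 and F2rl2 had an unadjusted p under 0.05 (17.9%) and did not overlap (45%). The median log2 difference of the 7 members was 0.17 in knockout and 0.12 in knockdown against wild type, beside -0.028 and 0.0284 for all genes tested.

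**Figure D1:**
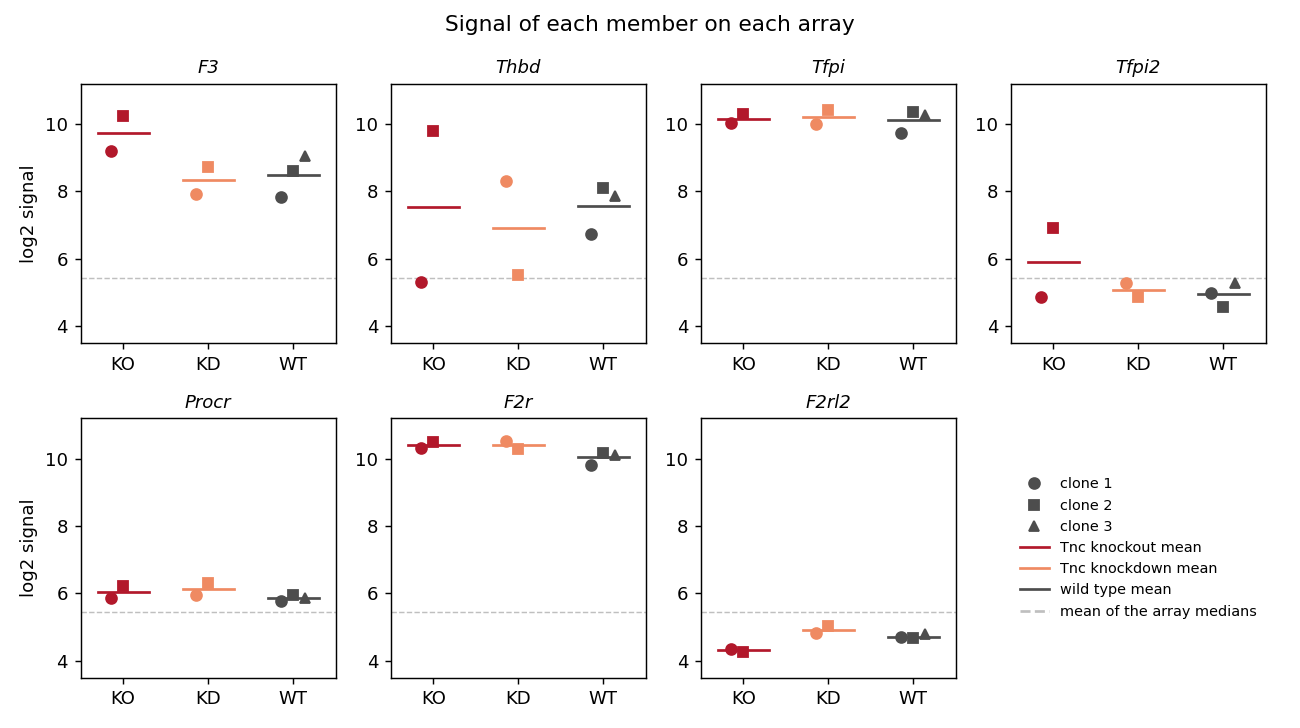
log2 signal (vertical axis) of the 7 members on each array, with knockout, knockdown and wild-type clones from left to right in each panel and a bar at each group's mean; the dashed line is the mean of the array medians. Thbd ran from 5.31 to 9.79 between the 2 knockout clones, and F2rl2 was lower in both knockout clones than in the other 5. Levels are not compared between genes, since each has its own probe set.

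The promoter sequences of F3, F2r and F2rl2 are shown because these are the 3 members whose knockout and wild-type arrays did not overlap. Each is the 250 bases before the annotated start, from RefSeq on GRCm38.p6, written 5′ to 3′ along the gene's strand in lower case. Matches to TGANTCA are in capitals. It is a widened form of the motif of the transcription factor AP-1 that accepts any middle base, and the matches counted depend on that. The motif was chosen after these windows had been read.
F3 (chr3:121723287-121723536, plus strand): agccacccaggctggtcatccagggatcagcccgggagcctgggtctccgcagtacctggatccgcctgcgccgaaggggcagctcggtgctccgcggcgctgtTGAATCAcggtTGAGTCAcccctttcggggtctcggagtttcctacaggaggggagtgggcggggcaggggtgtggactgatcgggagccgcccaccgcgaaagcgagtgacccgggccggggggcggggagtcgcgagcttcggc
F2r (chr13:95618467-95618716, minus strand): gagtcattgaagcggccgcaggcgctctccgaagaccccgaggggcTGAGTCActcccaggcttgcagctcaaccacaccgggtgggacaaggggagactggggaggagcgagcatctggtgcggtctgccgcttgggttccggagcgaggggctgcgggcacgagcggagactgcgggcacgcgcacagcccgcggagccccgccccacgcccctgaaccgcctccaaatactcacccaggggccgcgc
F2rl2 (chr13:95696670-95696919, plus strand): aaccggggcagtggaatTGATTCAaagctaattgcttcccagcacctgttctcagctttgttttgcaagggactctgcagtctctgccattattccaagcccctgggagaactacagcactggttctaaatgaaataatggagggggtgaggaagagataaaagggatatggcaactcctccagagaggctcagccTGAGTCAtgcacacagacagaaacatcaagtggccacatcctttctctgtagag
TGANTCA reads the same on both strands apart from its middle base and was searched on both. F3 had 2 matches, 146 and 135 bases before the start, F2r had 1 at 204 bases, and F2rl2 had 2 at 233 and 54 bases. The 6 members with a promoter window, of which Thbd was not one, had 9 windows, in part overlapping for Tfpi2. The motif was in 5 of them, each of a different gene, where 6.75% of all 32817 windows hold it. Since the motif was chosen after the windows had been read, these shares cannot show an enrichment. A match is a description of letters only. The F3 window also held GGGCGG, a motif of Sp1, 3 times over both strands, and 32.7% of all windows hold that motif.

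F3 (gene 14066, probe set 10495675, chromosome 3) encodes tissue factor. Its log2 signal was 9.21 and 10.24 in knockout clones and 7.92 and 8.73 in knockdown clones, against 7.83, 8.60 and 9.06 in wild-type clones. Both knockout clones lay above every other clone, the nearest wild-type clone being only slightly lower than knockout array 1, while knockdown and wild-type clones were interleaved. The means were 9.72 ± 0.73 in knockout (SD, n = 2), 8.33 ± 0.57 in knockdown (n = 2) and 8.50 ± 0.62 in wild type (n = 3). Knockout was 2.34-fold above wild type (log2 difference 1.23 ± 0.48 SE, 95% interval 0.06 to 2.39), which did not pass the test (adjusted p = 0.37, limma). Knockout was 2.63-fold above knockdown (log2 difference 1.40 ± 0.52 SE, adjusted p = 0.252), also short of the threshold. Knockdown differed from wild type by -0.17, with an interval of -1.33 to 0.99. Both deficient groups together were 0.53 above wild type (interval -0.44 to 1.5, adjusted p = 0.635). Without both arrays numbered 2, the difference from wild type was 0.71 in knockout (adjusted p = 0.745, limma), -0.57 in knockdown and 0.070 for both together, and knockout minus knockdown was 1.29. Leaving out single arrays moved the difference for both groups together between 0.19 and 0.81.

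Tfpi (gene 21788, probe set 10484389, chromosome 2), the inhibitor of tissue factor with factor VIIa and of factor Xa, read 10.02 and 10.28 in knockout and 10.00 and 10.43 in knockdown, against 9.72, 10.35 and 10.28 in wild type. The 3 groups overlapped, with the lowest value on wild-type array 1. The difference from wild type was 0.03 in knockout (95% interval -0.53 to 0.60, adjusted p = 0.965, limma) and 0.10 in knockdown (-0.47 to 0.66, adjusted p = 0.89). Both deficient groups together differed from wild type by 0.07 (interval -0.41 to 0.54), and knockout differed from knockdown by -0.06 (interval -0.68 to 0.56). All 4 values changed sign without both arrays numbered 2, to -0.098 in knockout, -0.12 in knockdown, -0.11 for both together and 0.018 for knockout minus knockdown.

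Tfpi2 (gene 21789, probe set 10542953, chromosome 6) encodes a matrix-bound serine protease inhibitor related to Tfpi. It read 4.87 and 6.91 in knockout and 5.28 and 4.87 in knockdown, against 4.996, 4.58 and 5.28 in wild type. Knockout array 2 stood alone, and the other 6 clones lay together at 4.58 to 5.28, below the array medians. The knockout mean was 1.92-fold above wild type (log2 difference 0.94, 95% interval -0.48 to 2.35, adjusted p = 0.54, limma), and without knockout array 2 the difference was -0.08. The knockdown difference was 0.12 (interval -1.30 to 1.54, adjusted p = 0.953). Knockout minus knockdown was 0.82 (interval -0.73 to 2.37, adjusted p = 0.512), and without both arrays numbered 2 it was -0.41. In that setting the knockdown difference was 0.33 and that of both deficient groups together 0.12.

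Thbd (gene 21824, probe set 10488378, chromosome 2) encodes thrombomodulin, the thrombin receptor that turns thrombin to protein C activation. It read 5.31 and 9.79 in knockout clones and 8.31 and 5.52 in knockdown clones, against 6.75, 8.11 and 7.86 in wild-type clones. A high and a low clone stood in each deficient group, outside the wild-type range on both sides, so all 3 groups overlapped. On its own array, the signal stood at the 48.3th and 94.1th percentile of probe sets in the knockout clones, and at the 84.3th and 51st in the knockdown clones. In the wild-type clones it stood at the 67.4th, 81.8th and 79.8th percentile. The group means were 7.55 ± 3.16 in knockout (SD, n = 2), 6.92 ± 1.98 in knockdown (n = 2) and 7.57 ± 0.73 in wild type (n = 3). Knockout differed from wild type by -0.02 (95% interval -3.52 to 3.48, adjusted p = 1, limma) and knockdown by -0.65 (-4.16 to 2.85, adjusted p = 0.882). Knockout minus knockdown was 0.63 (-3.20 to 4.47, adjusted p = 0.847, limma). Both deficient groups together were -0.34 against wild type (-3.27 to 2.595, adjusted p = 0.936). The intervals reach several log2 units in both directions. Without both arrays numbered 2, Thbd was -2.26 against wild type in knockout (limma, adjusted p = 0.336) and 0.74 in knockdown (adjusted p = 0.737), so the sign of the knockdown value turned. Knockout minus knockdown turned as well, to -3.001 (unadjusted p = 0.041, adjusted p = 0.253, limma), and both deficient groups together were -0.76 against wild type.

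Procr (gene 19124, probe set 10477717, chromosome 2) encodes the receptor that presents protein C to thrombin bound by thrombomodulin. It read 5.86 and 6.22 in knockout and 5.96 and 6.32 in knockdown, against 5.77, 5.96 and 5.87 in wild type. The groups overlapped, with 1 clone of each deficient group above all wild-type clones. The difference from wild type was 0.17 in knockout (95% interval -0.21 to 0.56, adjusted p = 0.663, limma) and 0.27 in knockdown (-0.11 to 0.66, adjusted p = 0.495). Both deficient groups together were 0.22 above wild type (-0.10 to 0.55, adjusted p = 0.542), and knockout minus knockdown was -0.10 (-0.52 to 0.32). Without both arrays numbered 2 the difference from wild type was -0.012 in knockout, 0.093 in knockdown and 0.041 for both together, and knockout minus knockdown was -0.10.

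F2r (gene 14062, probe set 10411229, chromosome 13) encodes PAR1, the main thrombin receptor of fibroblasts. Its log2 signal was 10.33 and 10.49 in knockout and 10.53 and 10.30 in knockdown, against 9.82, 10.19 and 10.11 in wild type. All 4 deficient clones lay above all 3 wild-type clones. The difference from wild type was 0.37 ± 0.14 SE in knockout (1.30-fold, adjusted p = 0.354, limma) and 0.38 ± 0.14 SE in knockdown (1.30-fold, adjusted p = 0.318). For both deficient groups together it was 0.37, with a 95% interval of 0.09 to 0.66, an unadjusted p of 0.0178 and an adjusted p of 0.307. Knockout minus knockdown was -0.0007, with an interval of -0.37 to 0.37, which does not show that the groups are alike. Without wild-type array 1, the lowest clone, the deficient difference was 0.27 (adjusted p = 0.659, limma). Without both arrays numbered 2 the difference from wild type was 0.29 in knockout, 0.49 in knockdown and 0.39 for both together, and knockout minus knockdown was -0.20.

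F2rl2 (gene 14064, probe set 10406736, chromosome 13) encodes PAR3, a thrombin receptor that in mouse platelets assists PAR4. It read 4.37 and 4.27 in knockout and 4.81 and 5.04 in knockdown, against 4.71, 4.67 and 4.78 in wild type. Both knockout clones lay below every other clone and both knockdown clones above every wild-type clone, all of them below the array medians. Knockout was 1.32-fold below wild type (log2 difference -0.40 ± 0.096 SE, 95% interval -0.64 to -0.17, adjusted p = 0.183, limma). Knockdown was 1.15-fold above wild type (0.21 ± 0.096 SE, adjusted p = 0.407), a difference that was 0.090 without knockdown array 2 and 0.32 without knockdown array 1. Knockout minus knockdown was -0.61 ± 0.11 SE (1.53-fold, interval -0.87 to -0.36, unadjusted p = 0.00108, adjusted p = 0.0827). Of the 7 members, this had the lowest adjusted p. Both deficient groups together were -0.10 against wild type (interval -0.29 to 0.097, adjusted p = 0.659, limma). Without both arrays numbered 2, knockout minus knockdown was -0.45. In that setting the difference from wild type was -0.36 in knockout, 0.090 in knockdown and -0.13 for both together.

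F2rl1, F2r, Iqgap2 and F2rl2 follow one another on chromosome 13 in the RefSeq gene order, and F2rl2 lies within the span of Iqgap2, on the other strand. Iqgap2, a scaffold protein of the actin cytoskeleton, read 6.50 and 8.14 in knockout and 8.05 and 8.10 in knockdown, against 7.81, 8.27 and 7.59 in wild type. Its pattern was unlike that of F2rl2, since knockout array 2 was among its high arrays. The knockout difference of Iqgap2 was -0.57 (adjusted p = 0.627, limma) and the knockdown difference 0.18 (adjusted p = 0.899).

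**Figure D2:**
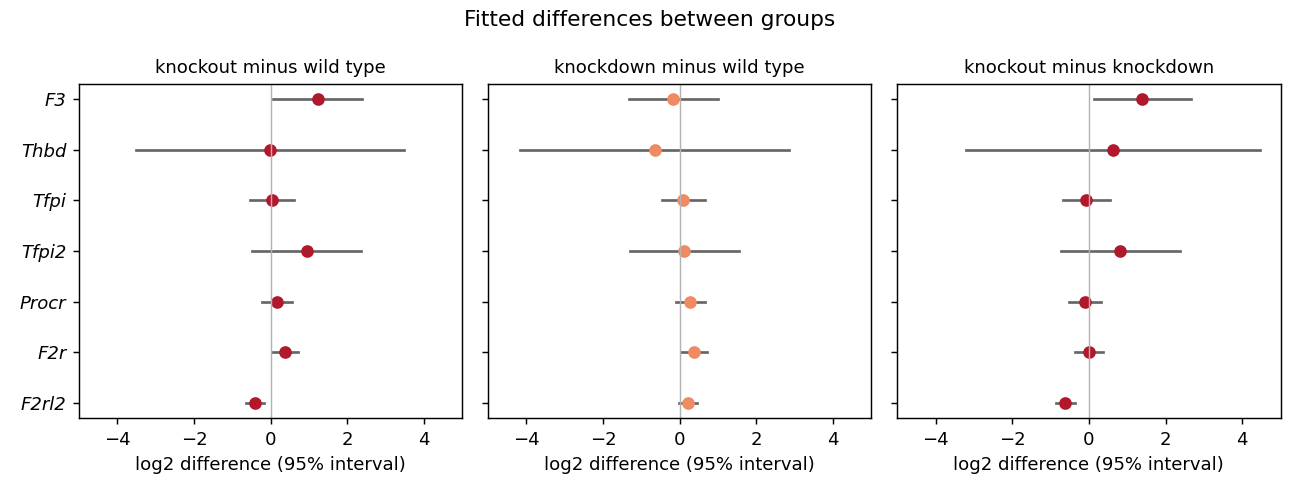
log2 difference (horizontal axis) of each member in knockout against wild type, knockdown against wild type, and knockout against knockdown, with points for the fitted value and bars for the 95% interval. The Thbd bar runs from -3.52 to 3.48 in knockout against wild type, and F2rl2 and F2r have the narrowest bars.

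The clones of 1 group differed most in Thbd. Between the 2 knockout clones it spanned 4.47 log2 units (22.2-fold), a range reached by 2 of 16801 genes, the other being Mmp3 at 4.99. These 2 clones also differed in sex-linked genes, and the Y-linked gene Uty came next in range at 4.43. Between the 2 knockdown clones Thbd spanned 2.795 (6.94-fold, reached by 13 genes), and among the 3 wild-type clones 1.36 (2.57-fold, reached by 216). Knockout array 2 was the higher of its pair and knockdown array 1 of the other, and whether the clone numbers pair these cells is not known here. Thbd is 1 of 29 genes tested (0.173%) with a range of at least 1 log2 unit in every group. The median range over genes was 0.156 in knockout, 0.141 in knockdown and 0.212 in wild type.

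F3 spanned 1.03 log2 units in knockout, 0.80 in knockdown and 1.23 in wild type, above the 95th percentile of all genes tested in each group. Tfpi2 passed that percentile in knockout (2.04 log2 units) and stayed under it in the other two groups. Tfpi, Procr, F2r and F2rl2 stayed under it in all 3 groups. F3, Thbd and Tfpi2 were highest on knockout array 2, 3 of 7 members, against 12.3% of all genes tested. The genes next to Thbd on chromosome 2 (Foxa2, Sstr4, Cd93 and Nxt1) spanned at most 0.37 between the knockout clones. Only Nxt1, at 7.96 to 8.39, lay well above the array medians, and the others lay near or below them. The small span of such dim probe sets does not show that these genes were stable.

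**Figure D3:**
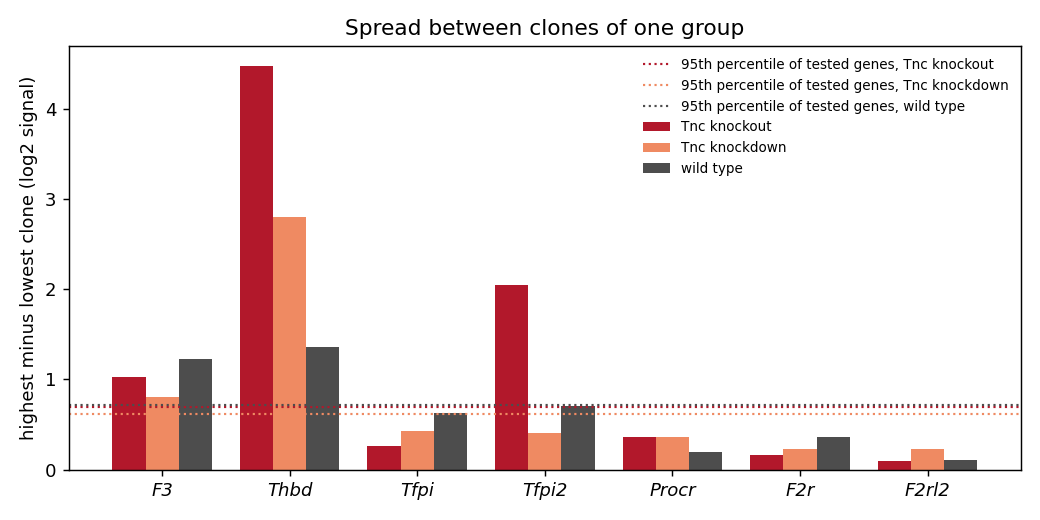
Range in log2 signal (vertical axis) between clones of each group for the 7 members, as bars for knockout, knockdown and wild type; dotted lines mark the 95th percentile of all genes tested in each group. Thbd and F3 stand above their line in every group, and Tfpi2 in knockout alone.

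For the 3 members that ranged by at least 1 log2 unit over the 7 arrays, the genes with the most similar pattern were sought by the root mean square difference between deviations from each gene's own mean, a description over 7 arrays that share clones. For Thbd they were Srpx (0.585), Htra1 (0.852), a secreted serine protease, and Ctsc (0.856), the protease cathepsin C. For F3 they were Fgd3 (0.318), Maff (0.329), a small Maf transcription factor, and Rnpep (0.362), an aminopeptidase. For Tfpi2 they were Hoxb9 (0.157), Dok5 (0.233) and Cpxm2 (0.242), all of them high on knockout array 2. Even the closest match left Thbd with a difference of 0.585, where its own SD over arrays was 1.49.

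**Figure D4:**
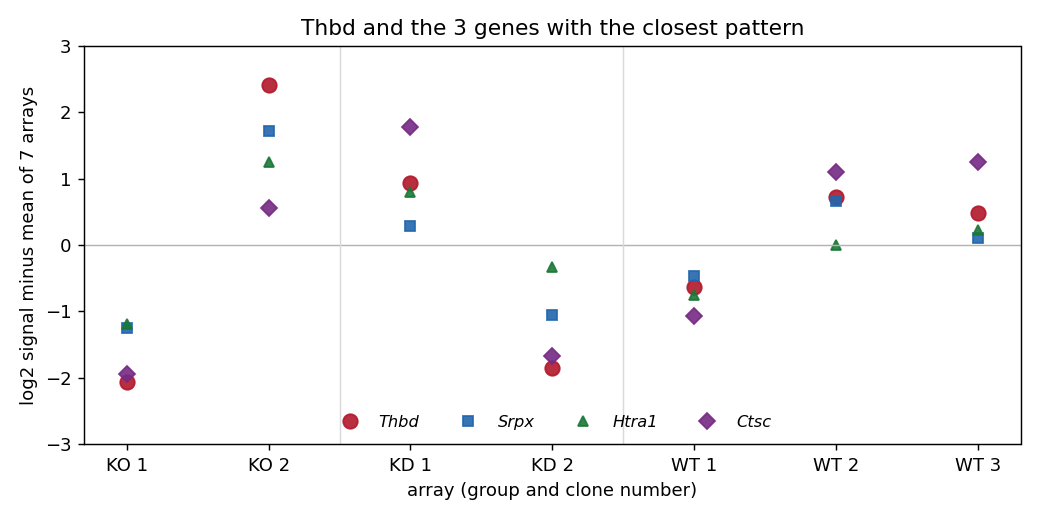
Deviation of log2 signal from each gene's own mean over the 7 arrays (vertical axis) for Thbd and the 3 genes closest to it, Srpx, Htra1 and Ctsc, by array. All 4 lie below their own mean on knockout array 1 and knockdown array 2 and above it on knockout array 2 and knockdown array 1. The 3 genes were picked for their likeness to Thbd over these same arrays.

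The rest of the pathway was followed in 5 lists. No gene of any list passed the test in knockout or knockdown against wild type. Of the 16 coagulation factors, 15 were measured and 10 tested. On any array only 2 to 4 lay above the array median, and the mean log2 signal of the list was 4.37 to 4.47. Among those tested, 0 had an unadjusted p under 0.05 (limma) in either comparison (12.8% of all genes in knockout and 14.1% in knockdown). The median log2 difference was -0.011 in knockout and 0.046 in knockdown. In signal this dim, the absence of calls does not show that expressed factors stayed unchanged. F7, which encodes factor VII, the partner of tissue factor, was -0.29 in knockout (adjusted p = 0.463, limma), and F8 was 0.22 (adjusted p = 0.48). F12 was 0.18 (adjusted p = 0.448) and F2, prothrombin, 0.13 (adjusted p = 0.629) in knockdown.

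Of 13 coagulation inhibitors and vitamin K cycle genes, 10 were tested, 1 of them with an unadjusted p under 0.05 in knockout (12.8% of all genes) and 0 in knockdown (14.1%). That gene was Gas6, a vitamin K-dependent ligand of TAM receptor kinases, with 11.13 and 10.16 in knockout and 7.13 and 8.41 in knockdown, against 6.91, 8.72 and 7.15 in wild type. Both knockout clones lay above all other clones, by 3.06 ± 0.67 SE over wild type on the log2 scale (adjusted p = 0.156, limma). Vkorc1, which recycles vitamin K, was 0.32 in knockout (limma, adjusted p = 0.441) and 0.34 in knockdown (adjusted p = 0.381). Anxa5 was -0.22 in knockdown (adjusted p = 0.498).

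The list of 16 genes for signalling by the receptors also held F2rl3, which encodes the thrombin receptor PAR4. Of these genes, 15 were tested and 4 had an unadjusted p under 0.05 (limma) in knockout, all of them higher (12.8% of all genes). In knockdown 1 did, lower (14.1%). F2rl3 differed from wild type by 0.04 in knockout (limma, adjusted p = 0.941) and by 0.02 in knockdown (adjusted p = 0.979). Plcb1, the phospholipase C activated by Gq proteins, read 5.74 and 6.58 in knockout and 4.51 and 5.65 in knockdown, against 4.38, 4.37 and 4.19 in wild type. All 4 deficient clones were above all wild-type clones, with a knockout difference of 1.84 ± 0.38 SE (adjusted p = 0.14, limma). Plcb3 was 0.82 in knockout (adjusted p = 0.223). Gna12, a G protein subunit, was -0.26 in knockdown (adjusted p = 0.325) and Arrb2 was -0.25 (adjusted p = 0.38).

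Of 20 genes known to be induced by serum or thrombin, 19 were tested, with a median difference of 0.040 in knockout and -0.19 in knockdown against wild type. Before adjustment, 3 were higher and 2 lower in knockout (12.8% of all genes at a p under 0.05), and 0 were higher and 6 lower in knockdown (14.1%). In knockout against knockdown the median was 0.53, beside -0.0503 for all genes, with 7 of them higher and 1 lower before adjustment (17.9% of all genes). Dusp1, a phosphatase of MAP kinases, read 10.21 and 10.43 in knockout and 9.31 and 8.98 in knockdown, against 9.22, 9.20 and 9.22 in wild type. It rose by 1.18 ± 0.13 SE in knockout against knockdown (adjusted p = 0.0464, limma), a call that 12 of 17 alternatives ended, among them leaving out any 1 array (adjusted p from 0.0288 to 0.312 over the 17). Against wild type it was 1.11 higher in knockout (adjusted p = 0.0502), and 6 of 17 alternatives brought this under the threshold (adjusted p from 0.0272 to 0.274 over the 17). Jun, a subunit of AP-1, read 9.14 and 9.27 in knockout and 8.96 and 9.12 in knockdown, against 9.82, 9.85 and 9.62 in wild type. All 4 deficient clones were lower, with a difference from wild type of -0.56 in knockout (limma, adjusted p = 0.13) and of -0.72 in knockdown (limma, adjusted p = 0.117). Ier2, an immediate early gene, was -0.62 in knockdown (adjusted p = 0.129).

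Of 14 transcriptional regulators linked to F3 or Thbd, 13 were tested, with a median of 0.14 in knockout and -0.078 in knockdown. Before adjustment, 2 were higher and 2 lower in knockout (12.8% of all genes), and 0 were higher and 3 lower in knockdown (14.1%). Wwtr1, the coactivator TAZ, was 0.54 in knockout (adjusted p = 0.16, limma), and its relative Yap1 was -0.28 in knockdown (adjusted p = 0.266). Jun, Egr1 and Fos stand both in this list and among the genes induced by serum or thrombin. The 2 genes lower in knockout before adjustment were Jun and Egr1 in both lists, so these counts are not separate.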

How the data were processed

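Expression was measured on 7 whole-transcript arrays. The values are the authors' deposited log2 signals, 1 column per array; per the submitters' processing notes they were made with affy in R 2.8.0. Background correction, normalization and summarisation: not given in the sources used here. That the scale is log2 follows from the range of values. Of 34760 probe sets, 21640 carried a single symbol. For a gene with several, the probe set with the highest mean was used. Genes above the array's 25th percentile on at least 2 arrays were tested. A linear model with 3 group means was fitted with limma 3.58.1 in R 4.3.3 (lmFit, eBayes, two-sided, 4 residual degrees of freedom), with Benjamini-Hochberg adjustment over 16801 genes, and was tested on simulated data. The number of arrays limits the precision. The members and lists were chosen with earlier results of these data known. Named are the members, Tnc, and the genes called in each list or otherwise the 2 of smallest p in knockout and in knockdown. So are the 3 genes closest in pattern to a member that ranged by at least 1 log2 unit. Iqgap2, Mmp3, Uty, Lum, Krt19, F2rl3, Egr1, Fos and the genes next to Thbd were chosen after values were seen. RefSeq on GRCm38.p6 gave gene order and promoters. Alternatives changed the filter, normalization, probe set, prior, weights, samples and replicate block.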

Additional observations from a re-analysis of the deposited data

Results flagged for a closer look

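F2rl2 lay on opposite sides of wild type in the deficient groups: both knockout clones lay below all wild-type clones and both knockdown clones above them. Of all genes tested, 28.5% in knockout and 30.5% in knockdown did not overlap with wild type, each comparison taken alone and both directions counted. The share of genes lying on opposite sides of wild type in the deficient groups was not counted. The signal of F2rl2 was dim, at the 30.3th to 42.9th percentile of the arrays. Knockout minus knockdown was -0.61 on the log2 scale (unadjusted p = 0.00108, adjusted p = 0.0827, limma), so the difference itself missed the threshold. The knockdown difference from wild type alone was 0.21, and 0.090 without knockdown array 2.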

How the results depend on the processing

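No member was called in any comparison under any of the 17 alternatives. The count of all genes called was less stable. In knockout against wild type it was 28 (20 higher, 8 lower), and it was 79 with the stricter filter, 45 after quantile normalization, 71 after median centring (61 higher, 10 lower), 70 with a trended robust prior, 1 without both arrays numbered 2, 6 with only the groups compared, and 3 to 71 with single arrays left out. In knockdown against wild type it was 3, and 0 without both arrays numbered 2, with only the groups compared and with each single array left out, settings in which 1620 to 2610 genes had an unadjusted p under 0.05; where 0 were called in the other comparisons, 1260 to 2560 did. For both deficient groups it was 5, and it was 10 with the stricter filter, 8 with array weights, 13 with the trended prior, 0 without both arrays numbered 2, 0 with only the groups compared, and 0 to 5 with single arrays left out. In knockout against knockdown it was 63, and it was 38 without a filter, 111 with the stricter filter, 100 after quantile normalization, 137 after median centring, 18 with array weights, 1 without both arrays numbered 2, 0 with only the groups compared, and 0 to 103 with single arrays left out. Same-numbered arrays correlated at -0.05 to 0.09 in their deviations from group means, and differently numbered arrays at -0.131 to 0.131. In a group of 2 arrays the deviations mirror each other, so these values cannot decide whether the replicate numbers pair the samples. With the number as a replicate block, 2 genes were called in knockout against wild type and 0 in knockdown. In both deficient groups 0 were called, and 2 in knockout against knockdown. In that setting F3 in knockdown turned to 0.11 and Thbd in knockout to 0.12. F2rl2 and Tfpi2 were not tested under the stricter filter.

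The members' differences that changed sign are these. Without both arrays numbered 2, Procr in knockout was -0.012, Tfpi was -0.10 in knockout, -0.12 in knockdown, -0.11 in both and 0.018 in knockout against knockdown, Tfpi2 was -0.083 in knockout and -0.41 against knockdown, and Thbd was 0.74 in knockdown and -3.001 in knockout against knockdown (unadjusted p = 0.041, adjusted p = 0.253, limma). Array weights gave Tfpi -0.067 in knockout, -0.0038 in knockdown and -0.036 in both. Quantile normalization gave Tfpi -0.011 in knockout. Median centring gave Thbd 0.026 in knockout, and in knockout against knockdown Tfpi 0.012 and F2r 0.075. With single arrays left out, Thbd ran from -2.26 to 2.22 in knockout, -2.05 to 0.74 in knockdown, -1.46 to 0.78 in both and -1.60 to 2.87 in knockout against knockdown. Tfpi ran from -0.16 to 0.17, -0.12 to 0.31, -0.13 to 0.18 and -0.28 to 0.15 in the same order. Tfpi2 ran from -0.083 to 1.96 in knockout, -0.085 to 0.33 in knockdown and -0.20 to 1.84 between them, and Procr from -0.012 to 0.36 in knockout and -0.29 to 0.081 against knockdown. F2r ran from -0.12 to 0.12 in knockout against knockdown and F3 from -0.57 to 0.23 in knockdown. F3 in knockout kept its sign, at 0.71 to 1.74, and so did F2rl2, at -0.45 to -0.36 in knockout and -0.73 to -0.50 against knockdown. The cause of these changes was not tested.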
